A study of Mus musculus with 4 samples.

Results

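Mast cells and basophils are marked by a small set of genes for granule proteases, histamine synthesis and the IgE receptor. Their values were taken from ribosome footprint and input RNA libraries of mouse leukaemia stem cells. The set was chosen by name as 9 genes, after their values in these same libraries were known. Of the 9, 8 have a row among the 16442 genes of the table: Cpa3, Gata2, Hdc, Mcpt8, Prss34, Ms4a2, Fcer1g and Hnmt. Fcer1a was not analysed here. Because the levels themselves led to the choice, they are given below as a description. Counts of these genes called in the fit across all genes appear only beside the share of all genes called, and support nothing.

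Mast cells mature in tissues and basophils circulate in blood, and both arise from bone marrow progenitors under the transcription factor GATA2. Both carry the high-affinity IgE receptor, made of an alpha chain that binds IgE, a beta chain that amplifies the signal and a gamma chain that many other myeloid cells also use. Crosslinking of the receptor releases granules that hold histamine and proteases, and neighbouring cells break histamine down by methylation.

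The cells came from the bone marrow of C57BL/6 mice with leukaemia, with 2 libraries from WT mice and 2 labelled as Rreb1 knockout. KO replicate 2 carries Rreb2-KO in its genotype label, and it was placed by its title. The replicates are called biological, but their animals are not named in the sources at hand, and a p-value here measures only the spread between these libraries, which may be technical. The model that produced the leukaemia, the Cre or allele used and the sort that defined the stem cells are likewise not named there. Cell lysates were treated with micrococcal nuclease, which leaves the stretches of mRNA that ribosomes cover. Undigested lysate supplied the input RNA.

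The WT libraries held 878068 and 656249 assigned footprint reads, and the KO-labelled libraries 364087 and 274183. The input libraries were deeper and more even, at 17037493 to 19121998 reads. Between replicates, log2 footprints correlated across 6389 genes with r = 0.940 in WT and 0.782 in KO, and log2 RNA with r = 0.997 and 0.996. Such values across genes do not count genes as replicates. Rreb1, the targeted gene, had footprints of 14.1 and 12.8 RPKM in WT and 12.9 and 8.19 RPKM in the KO-labelled libraries. Its RNA was 3.33 and 3.25 RPKM in WT against 6.10 and 6.93 RPKM. Which part of the gene was deleted is likewise not named, so these levels do not settle the labels, and the libraries are called KO-labelled. RPKM is reads per kilobase, scaled to the assigned reads of the library, over coding length for footprints and over exon length for RNA. Translational efficiency (TE) is the deposited ratio of the footprint value to the RNA value, each with 1 RPKM added.

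Sequence from the 250 bases before the transcription start is shown for 4 of the genes. Cpa3, Prss34 and Ms4a2 are genes whose footprints were higher in both KO-labelled libraries and whose start lies after a match to a GATA box. A GATA box is the word that GATA factors bind, and Gata2 is shown as a gene without a match. For Ms4a2 the footprint order rests on 0 and 1 reads in WT and 1 and 1 in KO, too few to show a difference. Sequences are those of RefSeq on GRCm38.p6, printed along the gene's strand. Bases inside the annotated span of the gene are left out, so the stretch of Cpa3 ends 28 bases and that of Ms4a2 71 bases short of the start, and those of Prss34 and Gata2 reach it. Capitals mark matches on either strand to the word AGATAA, its form AGATAG with another last letter, or the forms TGATAA and then TGATAG with another first letter.
Cpa3, chr3:20242210-20242431, minus strand: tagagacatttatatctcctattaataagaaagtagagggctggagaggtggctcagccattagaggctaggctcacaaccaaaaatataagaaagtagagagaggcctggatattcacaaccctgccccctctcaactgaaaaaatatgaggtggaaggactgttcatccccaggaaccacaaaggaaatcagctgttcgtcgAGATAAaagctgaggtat
Prss34, chr17:25298144-25298393, plus strand: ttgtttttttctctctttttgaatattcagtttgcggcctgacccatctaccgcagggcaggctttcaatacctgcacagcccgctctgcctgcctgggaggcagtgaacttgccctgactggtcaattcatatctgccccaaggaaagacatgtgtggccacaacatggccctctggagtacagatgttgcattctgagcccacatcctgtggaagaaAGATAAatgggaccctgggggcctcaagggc
Ms4a2, chr19:11623791-11623969, minus strand: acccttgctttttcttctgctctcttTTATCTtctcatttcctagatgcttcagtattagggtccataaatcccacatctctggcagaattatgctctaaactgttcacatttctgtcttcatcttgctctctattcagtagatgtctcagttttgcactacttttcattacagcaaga
Gata2, chr6:88193641-88193890, plus strand: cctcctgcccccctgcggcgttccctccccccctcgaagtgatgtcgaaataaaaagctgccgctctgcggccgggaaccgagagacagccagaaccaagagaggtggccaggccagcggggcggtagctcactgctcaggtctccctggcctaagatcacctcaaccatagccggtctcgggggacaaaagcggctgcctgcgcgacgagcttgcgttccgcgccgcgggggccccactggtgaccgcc

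In the 250 bases before the start, a GATA box was found in 5 of the 9 genes: Cpa3, Hdc, Prss34, Ms4a2 and Fcer1a. Counted from the start, the word begins at position -46 in Cpa3, at -31 in Prss34 and at -224, -37 and -11 in Ms4a2, of which the printed stretch of Ms4a2 holds the one at -224. The same search found a match in 26.5% of 32851 promoters. CATGTG, a word bound by the mast cell factor MITF, was found on either strand in Prss34 and Fcer1a, against 12.3% of all promoters. The GATA words and CATGTG do not share letters at these matches. A match describes the sequence and is not evidence of binding, and its absence in the other genes speaks only of this window.

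The protease genes were led by Cpa3, which encodes the carboxypeptidase stored in mast cell granules and is also expressed by basophils and their progenitors. Its footprints were 6.37 and 13.4 RPKM in the WT libraries and 542 and 668 RPKM in the KO-labelled libraries, from 7, 11, 247 and 229 reads. Both KO-labelled libraries lay far above both WT libraries. The means were 9.89 ± 4.97 and 605 ± 88.6 RPKM (SD, n = 2 each), and the pooled reads gave a KO over WT ratio of 63.6 with an exact 95% interval of 39.8 to 108. Intervals of this kind cover counting error alone. Cpa3 RNA was 0.758 and 0.835 RPKM in WT against 221 and 213 RPKM, from 22, 23, 6172 and 5493 reads. The RNA ratio was 273 (95% interval 204 to 374), so the RNA of this gene differed by a larger factor than its footprints.

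Mcpt8 encodes a granule protease that marks mouse basophils. Its footprints were 15.3 and 14.4 RPKM in WT and 29.6 and 34.4 RPKM in the KO-labelled libraries, but from only 10, 7, 8 and 7 reads. The groups did not overlap, and the pooled ratio of 2.12 had a 95% interval of 0.986 to 4.52, which includes a ratio of 1. Mcpt8 RNA, with 267 to 776 reads per library, was 19.0 and 14.7 RPKM in WT and 42.2 and 44.8 RPKM in KO. The RNA ratio was 2.57 (95% interval 2.34 to 2.82), far smaller than that of Cpa3.

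Prss34 encodes a tryptase-type protease of basophils. It had 1 and 3 footprint reads in WT and 6 and 7 in KO, or 1.19, 4.79, 17.3 and 26.8 RPKM. Its RNA had 0 reads in both WT libraries and 138 and 114 reads in the KO-labelled ones, at 6.14 and 5.48 RPKM. Against a floor of 3 reads over the WT group, RNA was 88.3-fold higher, a figure that leaves out counting error in the KO reads. Proteases of this family have related copies, and how reads shared between copies were assigned is not stated.

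Hdc encodes histidine decarboxylase, the enzyme that makes histamine. Its footprints were 14.3 and 13.8 RPKM in WT and 115 and 105 RPKM in KO, from 25, 18, 83 and 57 reads. Each pair of replicates was close together and the groups were well apart, with a pooled ratio of 7.83 (95% interval 5.53 to 11.3). Hdc RNA differed less, at 9.74 and 10.8 RPKM in WT and 18.7 and 14.5 RPKM in KO. The RNA ratio was 1.63 (95% interval 1.55 to 1.72).

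Hnmt encodes histamine N-methyltransferase, which inactivates histamine inside cells, and it went the other way. Its footprints were 56.6 and 44.8 RPKM in WT, from 44 and 26 reads, and no read was found in either KO-labelled library. With 3 reads as the floor over the KO group, footprints were 9.71-fold lower, a figure that leaves out counting error in the WT reads. Hnmt RNA was 26.04 and 27.2 RPKM in WT against 0.491 and 0.199 RPKM, from 881, 874, 16 and 6 reads. The WT over KO ratio of RNA was 75.9 (95% interval 49.9 to 121). Histamine synthesis and histamine breakdown were thus represented by genes with opposite differences.

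Gata2, the transcription factor, had footprints of 2.37 and 2.12 RPKM in WT and 78.2 and 45.6 RPKM in KO, from 3, 2, 41 and 18 reads. The pooled ratio was 28.4 with a 95% interval of 11.5 to 90.6, a wide interval set by the 5 WT reads. Gata2 RNA was 1.32 and 1.30 RPKM in WT and 11.4 and 12.2 RPKM in KO, from at least 127 reads in every library. The RNA ratio was 9.003 (95% interval 7.92 to 10.3). GATA2 is also expressed in stem cells, megakaryocyte progenitors and other early blood cells, so its level alone does not mark mast cells or basophils.

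Of the chains of the IgE receptor, Ms4a2 and Fcer1g were measured. Ms4a2, the beta chain, had 0 and 1 footprint reads in WT and 1 and 1 in KO, which is too few to show a difference (pooled ratio 4.81, 95% interval 0.2503 to 284). Its RNA was 0.335 and 0.509 RPKM in WT and 0.270 and 0.522 RPKM in KO, and the groups overlapped. Fcer1g, the gamma chain shared with Fc receptors of neutrophils, monocytes and NK cells, had the highest level of the set per length in every library, in footprints and in RNA, although in KO replicate 1 its footprints were close to those of Cpa3. Its footprints were 1876 and 2185 RPKM in WT and 637 and 1461 RPKM in KO, so both KO-labelled libraries were lower but they differed from each other by more than the WT libraries did. The WT over KO ratio of pooled reads was 2.03 (95% interval 1.75 to 2.36). Fcer1g RNA was 922 and 924 RPKM in WT and 969 and 998 RPKM in KO, a log2 difference of 0.09.

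**Figure D1:**
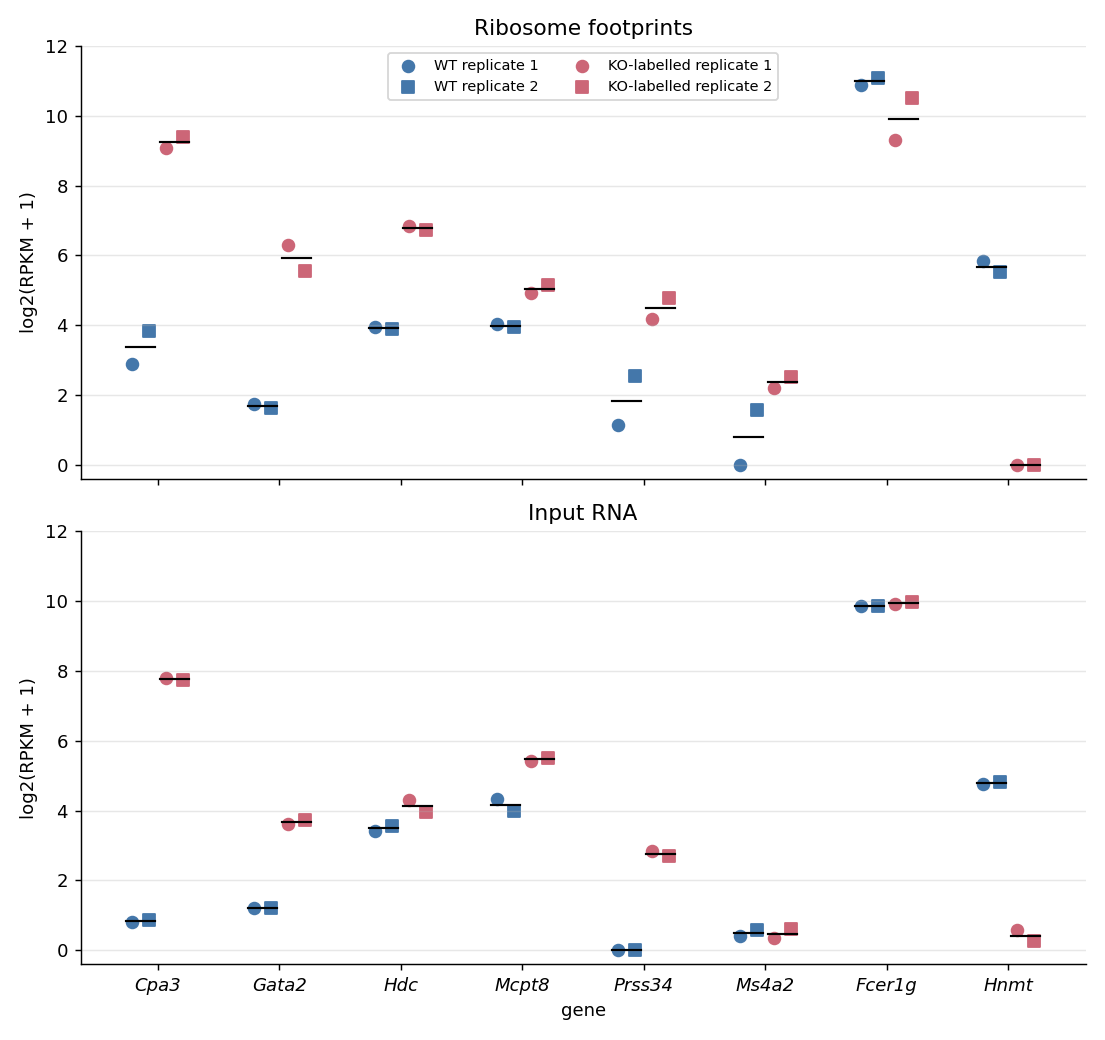
Footprint (top) and input RNA (bottom) levels of the 8 genes in each of the 4 libraries, as log2(RPKM + 1); points are libraries and black bars are group means of the log2 values. Cpa3, Gata2, Hdc, Mcpt8 and Prss34 lie higher in both KO-labelled libraries on both panels, Hnmt lies lower on both, Ms4a2 RNA overlaps, and Fcer1g is lower in footprints with nearly level RNA.

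In these bulk libraries, more cells of a type and more RNA per cell cannot be told apart. Over the 8 genes, footprints of 6 were higher in both KO-labelled libraries than in both WT libraries, as were those of 12.2% of all 16442 genes. Footprints of the other 2, Fcer1g and Hnmt, were lower, as were those of 19.5% of all genes. For RNA, 6 were higher against 44.3% of all genes and 1, Hnmt, was lower against 28.2%. Nothing is read from these counts, since the same values led to the choice of the genes.

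Of the 8 genes, 6 passed the filter for the fit across all genes, a footprint CPM of at least 20 in at least 2 libraries. Cpa3, Gata2 and Mcpt8 passed through the KO-labelled libraries alone and Hnmt through WT alone, so these had to differ. Hdc and Fcer1g passed in both groups, and Prss34 and Ms4a2 did not pass. By limma with a Benjamini-Hochberg adjusted p under 0.05, Cpa3, Gata2 and Hdc were among the footprints called higher, a call made for 0.595% of genes, and Hnmt among those called lower, made for 0.47%. In RNA, Cpa3, Gata2, Hdc and Mcpt8 were among the 33.1% of genes called higher and Hnmt among the 27.7% called lower. Without WT replicate 1 or WT replicate 2, 0 footprints were called for any gene, and with the replicate number as a block Cpa3 and Hnmt alone of the set were called. With limma-voom on the recovered reads, Cpa3 and Hdc alone were.

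Translational efficiency was 4.72-fold higher in the KO-labelled mean for Hdc and 3.53-fold higher for Gata2. The TE of Hdc was 1.43 and 1.26 in WT and 5.86 and 6.82 in KO, a log2 difference of 2.24. That of Gata2 was 1.46 and 1.36 in WT and 6.41 and 3.53 in KO, a log2 difference of 1.76. For both genes the 2 KO-labelled libraries lay above both WT libraries. The share of all genes with such a TE order was not counted, so nothing is read from it. The WT values of Gata2 rest on 3 and 2 footprint reads and RNA of 1.32 and 1.30 RPKM, where the added 1 RPKM weighs in the ratio. With 5 RPKM added, the log2 TE difference of Gata2 was 1.75.

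Cpa3 went the other way, with a TE of 4.19 and 7.85 in WT and 2.45 and 3.13 in KO. Its WT values divide by an RNA level under 1 RPKM, where the added 1 RPKM sets much of the ratio. With 5 RPKM added in place of 1, its log2 TE difference turned from -1.05 to 0.13. Mcpt8 had a TE of 0.817 and 0.977 in WT and 0.708 and 0.773 in KO, all under 1. Fcer1g was also under 1 in KO replicate 1, at 0.658, with 1.46 in KO replicate 2 against 2.03 and 2.36 in WT.

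The TE values of Prss34 were 2.19 and 5.79 in WT and 2.56 and 4.28 in KO, and the groups overlapped. With 0 RNA reads in WT, its WT values are the footprint value plus 1, from 1 and 3 footprint reads. Their overlap with KO therefore does not show an unchanged TE. The TE values of Ms4a2 were 0.749 and 1.99 against 3.63 and 3.80, from at most 1 footprint read per library. Those of Hnmt were 2.13 and 1.62 against 0.671 and 0.834, where the KO values rest on 0 footprint reads. Across all 6389 genes, limma called 0% of TE values (831 genes had an unadjusted p under 0.05), so none of the 6 genes fitted was called. Without KO replicate 1, 149 TE values were called over all genes, and without KO replicate 2, 699. Each of these fits leaves 1 KO-labelled library, which is assumed to vary like the WT libraries.

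**Figure D2:**
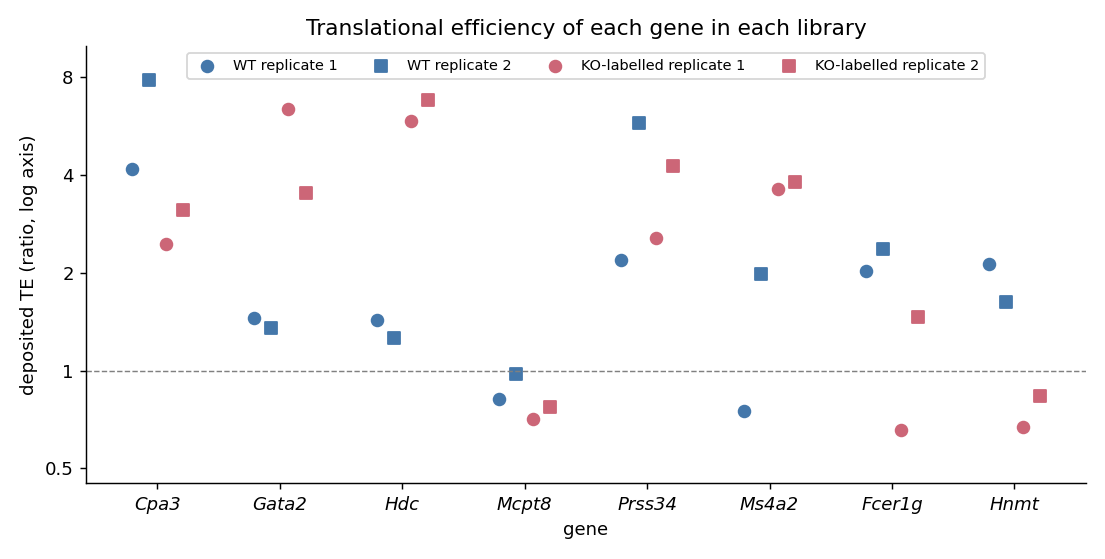
Deposited translational efficiency of the 8 genes in each library, on a log axis; the dashed line marks a ratio of 1. Hdc, Gata2 and Ms4a2 are higher in both KO-labelled libraries, Fcer1g, Hnmt, Mcpt8 and Cpa3 are lower, and Prss34 overlaps.

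Set against all tested genes, Hdc and Gata2 had larger log2 differences in footprints (2.88 and 4.23) than in RNA (0.64 and 2.47). Cpa3 and Mcpt8 had larger ones in RNA (6.92 and 1.33) than in footprints (5.87 and 1.05). For Mcpt8 the footprint interval of 0.986 to 4.52 holds the RNA ratio of 2.57, so no such order is shown. For Cpa3 the order turned with 5 RPKM added, at 5.39 in footprints and 5.26 in RNA. Pooled reads of Cpa3, with nothing added, gave ratios of 63.6 in footprints and 273 in RNA. Hnmt was lower in both, with a log2 difference of -4.37 in RNA. With 0 footprint reads in KO, its footprint difference is described only by the figure against a floor of 3 reads above. The median over all 6389 genes was -0.13 in footprints and 0.04 in RNA.

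**Figure D3:**
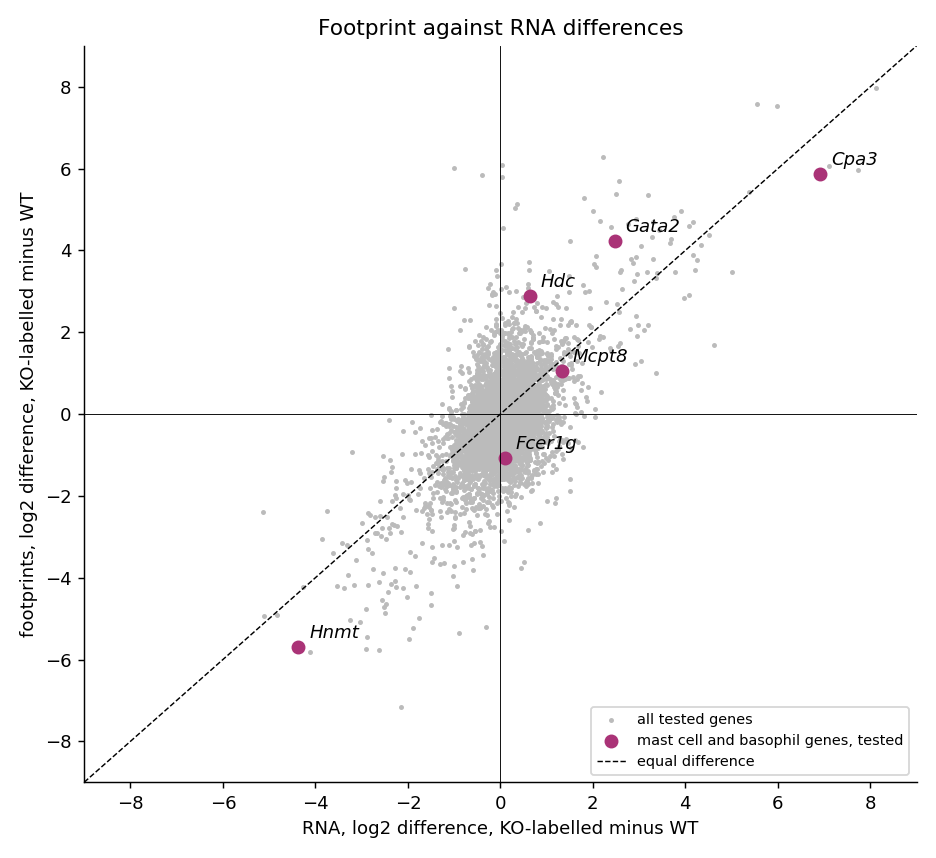
Log2 difference in footprints against that in RNA, KO-labelled minus WT, for the 6389 tested genes (grey) and the 6 mast cell and basophil genes among them (purple); the dashed line marks equal differences. Hdc and Gata2 lie above the line, Cpa3 and Mcpt8 a little below it, Fcer1g near 0 in RNA, and Hnmt at the lower left, at a footprint height that the added 1 RPKM sets because both KO-labelled libraries had 0 reads.

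The genes whose pattern over the 8 values (footprints and RNA of 4 libraries, each centred) lay nearest to that of Cpa3 included Rnase12, Ly6k, Prg3 and Frzb, at Euclidean distances of 0.596 to 2.30 log2 units. Prg3 encodes a granule protein of eosinophils. Nearest to Hnmt were Fbp1, a gluconeogenic enzyme, Chil3, a secreted lectin related to chitinases, Ccnd1, a G1 cyclin, Scin and Ecm1, at distances of 1.07 to 1.80.

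Other genes of the mast cell and basophil programme were listed by role, 121 in all, of which 96 have a row and 64 passed the filter. In footprints, 0 of the 64 passed limma at an adjusted p under 0.05 in either direction, with a median log2 difference of -0.26. At an unadjusted p under 0.05, 5 were higher and 13 lower. Of all 6389 genes, 1164 had such an unadjusted footprint p, counted over both directions, around a median of -0.13. In RNA, the count was 19 higher, 26 lower and 19 short of the threshold, around a median difference of -0.12. Of all 6389 genes tested, 33.1% were called higher and 27.7% lower in RNA around a median of 0.04, and each list count below is to be read beside these shares. Of the 64 genes, 60 passed the filter in both groups, Adora3 and Lmo4 through the KO-labelled libraries alone, and Ndst2 and Gab2 through WT alone. In TE, 0 of the 64 were called (2 higher and 4 lower unadjusted), beside 0 of all 6389 genes (831 unadjusted). Nothing is read from list calls in fits that leave out a KO-labelled library, since 1 library remains in that group.

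Of the granule protease and matrix genes, 5 were tested, and RNA of 2 rose and of 1 fell (all genes: 33.1% higher, 27.7% lower). Cd63, a tetraspanin of granule membranes that reaches the surface on degranulation, rose from 168 ± 0.0767 to 432 ± 38.4 RPKM (SD, n = 2 each), or 1.35 log2 units (limma adjusted p = 1.07e-05). Srgn, the proteoglycan core that packs granule proteases, fell by 0.26 in log2 RNA (limma adjusted p = 0.0144). Ctsg, a protease shared with neutrophils, had RNA of 1803 and 1733 RPKM in WT and 1788 and 1687 RPKM in KO. Cma1, the chymase of connective tissue mast cells, was at 0 footprints in all 4 libraries. Of the listed genes, 8, among them Mcpt4 and Tpsb2, were not analysed here.

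Signalling from the IgE receptor to degranulation was represented by 22 tested genes, of which 4 rose and 14 fell in RNA (all genes: 33.1% higher, 27.7% lower), with a median log2 difference of -0.32. Lyn, the kinase that first phosphorylates the receptor chains, fell from 72.9 ± 2.099 to 30.0 ± 0.774 RPKM (SD, n = 2 each), a change of -1.25 in log2 (limma adjusted p = 5.41e-06). Syk, the kinase recruited to the gamma chain, fell by 0.31 (adjusted p = 0.0102). Snap23, a membrane fusion protein of exocytosis, fell by 1.04 (adjusted p = 8.02e-05). Pik3r1, a regulatory subunit of PI3-kinase, rose by 1.35 (adjusted p = 6.17e-06). These genes act in many leukocytes, and Lyn and Syk belong to neutrophils and monocytes as much as to mast cells.

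Among 10 tested receptors and signal carriers for growth factors, 3 rose and 2 fell in RNA (all genes: 33.1% higher, 27.7% lower). Kit, the receptor for stem cell factor that mast cells and early progenitors depend on, rose from 2.14 ± 0.248 to 7.26 ± 0.146 RPKM (SD, n = 2 each), or 1.40 ± 0.09 log2 units (SE; limma adjusted p = 2.15e-05). Its footprints were 12.8 and 8.30 RPKM in WT and 29.0 and 54.6 RPKM in KO, a difference that did not pass (adjusted p = 0.165). Il3ra, a chain of the interleukin 3 receptor that supports basophils, rose by 0.47 in RNA (adjusted p = 0.000609).

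Of 17 tested transcription factors, RNA of 7 rose and of 5 fell (all genes: 33.1% higher, 27.7% lower), and 5 missed the threshold. Cebpa, a myeloid factor that favours basophils over mast cells, rose from 3.89 ± 1.21 to 10.7 ± 3.37 RPKM (SD, n = 2 each; adjusted p = 0.0023). Irf8, a monocyte factor also used by basophil progenitors, fell by 1.197 in log2 RNA (adjusted p = 9.57e-06). Bhlhe40, a repressor active in basophils and macrophages, fell by 2.12 (adjusted p = 2.26e-06).

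Of 5 tested surface and effector genes, 3 rose and 1 fell in RNA (all genes: 33.1% higher, 27.7% lower). Adora3, an adenosine receptor that augments mast cell degranulation, is among the 3. It passed the footprint filter through the KO-labelled libraries alone, so its footprints had to differ, and it is given as values. Its RNA was 0.794 ± 0.151 RPKM in WT and 7.40 ± 0.340 RPKM in KO (SD, n = 2 each). Itgb7, an integrin chain of mast cell progenitors, rose by 1.32 (limma adjusted p = 3.86e-06), and Cd9, a tetraspanin, fell by 1.33 (adjusted p = 1.34e-05). Il4 and Lilrb4a were at 0 footprints in all 4 libraries.

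Of 5 tested eicosanoid genes, 3 fell and 0 rose in RNA (all genes: 33.1% higher, 27.7% lower), with a median log2 difference of -1.32. Ptgs1, the constitutive cyclooxygenase, fell from 54.4 ± 0.352 to 6.58 ± 0.548 RPKM (SD, n = 2 each), a change of -2.87 in log2 (limma adjusted p = 2.39e-07). Its footprint difference of -3.30 did not pass (adjusted p = 0.0648). Alox5 and Lta4h, which make leukotrienes, fell by 1.32 (adjusted p = 5.38e-06) and 1.38 (adjusted p = 9.93e-06).

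**Figure D4:**
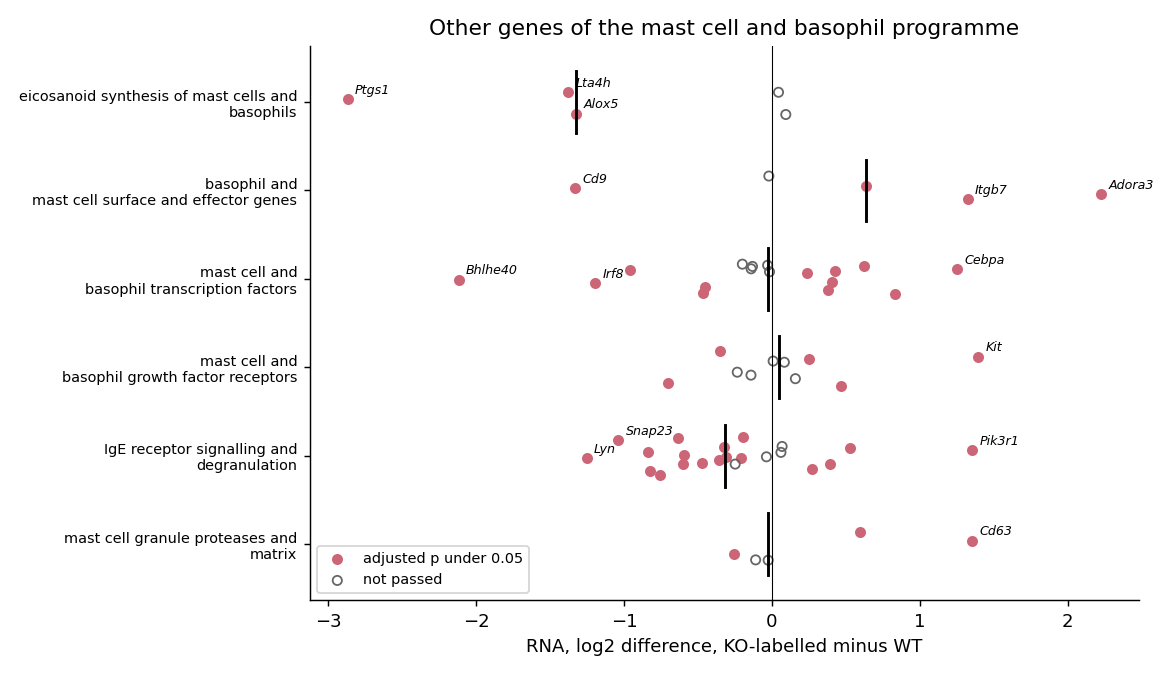
RNA log2 difference, KO-labelled minus WT, of the 64 tested programme genes by list; filled points passed limma at an adjusted p under 0.05, open points did not, and black bars are list medians. The eicosanoid list has the lowest median, at -1.32, and the IgE signalling list lies below 0 at -0.32.

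Histamine transport and receptor genes were too low in footprints for the fit. With RNA of at least 1 RPKM in at least 2 libraries as the filter instead, 3 were tested. Slc22a3 and Hrh4 passed it through the KO-labelled libraries alone, so they had to differ, and they are given as values. Slc22a3, a transporter that takes up histamine, had RNA of 0.0357 ± 0.0013 RPKM in WT and 3.97 ± 0.258 RPKM in KO (SD, n = 2 each). Hrh4, the histamine receptor of mast cells, eosinophils and basophils, was listed at 0 RNA in both WT libraries and at 1.54 and 1.34 RPKM in KO. Slc18a2, which loads histamine into granules, had RNA of 4.75 and 4.31 RPKM against 4.05 and 4.12 RPKM and did not pass. Under that filter, 83 programme genes were tested, of which 30 were called higher and 27 lower, beside 32.2% and 21.1% of the 12194 genes tested.

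Markers of other cell types are given for comparison. Their counts here and in the next paragraph are to be read beside the shares of all 16442 genes. In RNA, 44.3% of all genes were higher in both KO-labelled libraries and 28.2% lower. For footprints these shares were 12.2% and 19.5%. Summed RNA of 7 of 9 eosinophil markers was 64.1 to 64.3 RPKM in WT and 344 to 348 RPKM in KO. Of the 7, 6 were higher in both KO-labelled libraries and 1 was lower. Their summed footprints were 146 to 172 RPKM against 520 to 683 RPKM, with 3 of the 7 higher and 1 lower. Among these markers, Prg2 encodes the eosinophil major basic protein. Its RNA was 5.30 ± 0.872 RPKM in WT and 201 ± 3.13 RPKM in KO (SD, n = 2 each). The groups through which Prg2 passed the footprint filter were not listed, so it is given as values. Epx, the eosinophil peroxidase, had RNA of 0 and 0.0402 RPKM in WT and 13.8 and 10.4 RPKM in KO. Summed megakaryocyte marker RNA (5 of 11 markers, 3 higher in both) was 1.99 to 2.55 RPKM in WT and 23.6 to 25.5 RPKM in KO. Summed T and NK cell marker RNA (9 of 11, 7 higher) was 18.5 to 18.8 against 366 to 437 RPKM. Of these 9 markers, 3 had RNA of at least 1 RPKM in at least 2 libraries, with a median log2 difference of 1.51. Nkg7 alone of them passed the footprint filter, with an RNA difference of 4.63. Summed erythroid RNA (11 of 12, 7 higher and 1 lower) was 77.2 to 85.6 against 423 to 516 RPKM. Footprints did not follow in every case. Summed erythroid footprints were 56.6 and 163 RPKM in WT and 1089 and 79.5 RPKM in KO. Of the 11 markers, 0 were higher in both KO-labelled libraries and 1 was lower. Summed T and NK cell footprints were 74.0 and 101 RPKM in WT and 171 and 139 RPKM in KO, with 1 marker higher and 2 lower. Megakaryocyte footprints were 12.1 to 12.2 against 65.8 to 87.7 RPKM, with 2 of 5 higher.

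Summed stem and progenitor RNA was 54.1 to 57.4 RPKM in WT and 119 to 127 RPKM in KO (6 of 9, Kit among them). Of these markers, 4 were higher and 1 lower. Summed RNA of stroma and endothelium (5 of 9, 4 higher) was 12.1 to 12.4 against 73.3 to 80.3 RPKM. That of B cells (4 of 8, 3 higher and 1 lower) was 40.9 to 43.5 against 28.2 to 30.6 RPKM. Monocyte and macrophage RNA (9 of 9, 2 higher, 7 lower) was 1794 to 1852 RPKM in KO against 6135 to 6142 RPKM in WT. Neutrophil RNA (11 of 11, 1 higher, 9 lower) was 11267 to 11617 RPKM in KO against 17636 to 18485 RPKM in WT. The B cell markers Vpreb1 and Igll1 were at 0 footprints in all libraries. In footprints, the sums were 169 to 203 against 394 to 558 RPKM for stem and progenitor cells (3 higher and 1 lower). For stroma and endothelium they were 44.6 to 51.6 against 226 to 249 RPKM (3 higher). They were 10828 to 13181 against 2558 to 5266 RPKM for monocytes (6 lower) and 38.6 to 60.5 against 21.1 to 25.4 RPKM for B cells (2 lower). Neutrophil footprints were 26080 to 31563 against 18983 to 26016 RPKM (3 higher, 6 lower). Footprint depth moved with the groups as well, both KO-labelled libraries being shallower than both WT libraries. The part of these cell types and of depth in the differences of the mast cell and basophil genes was not tested.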

How the data were processed

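Ribosome footprints and input RNA were measured in 4 libraries, 2 per group. The authors deposited 1 table of 16442 genes that holds, per the file headers, footprint values, TE and a p-value; the deposited p-value column was not used for results. The tools listed per the submitters' processing notes are DESeq2, featureCounts, HISAT2 2.1.0 and CASAVA, without their roles. The listed build, hg38, is human, while the gene symbols are those of mouse, and no annotation is named in the sources used here. The deposited footprint values behaved as RPKM plus 1, a unit read from the values, and the deposited TE as the ratio of footprint to RNA with the same floor, so RNA was taken as footprint over TE, minus 1. TE of RNA at 0 equals the footprint value plus 1.

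Whole reads were recovered within 0.002 reads for 10536 of 10536 genes (100%) that had footprints in 2 or more libraries; 600 lengths were multiplied and 12 stayed fractional. Input reads were recovered for 96.3% of 15988 genes, not for Fcer1g. A gene of 1 kilobase with 1 footprint read had 1.14 RPKM in WT replicate 1 and 3.65 RPKM in KO replicate 2. Log2(RPKM + 1) values, which understate changes of low genes, were fitted by limma (version 3.58.1, R 4.3.3) with its trend option, a single group term and two-sided p-values adjusted by Benjamini-Hochberg over all 6389 genes with a CPM of at least 20 in at least 2 libraries. The scripts were tested on simulated data. Ratios of pooled reads carry exact conditional binomial 95% intervals.

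The genes, the lists and the rule for names were chosen with earlier results of these data known. Named were the 9 genes, up to 6 genes per list that passed with an absolute log2 difference of at least 1, list genes at 0 in all libraries, and the 5 tested genes nearest to Cpa3 and to Hnmt. Some items that these rules name are not reported here. Rreb1, Srgn, Ctsg, Syk, Il3ra, Slc22a3, Hrh4, Slc18a2, Prg2, Epx, Lmo4, Ndst2 and Gab2 were added after their values were seen. Same-numbered libraries were not shown to be paired: their deviations correlated with r = 0.0226 in footprints, -0.335 in RNA and 0.0084 in TE. Alternatives were leaving out each library, a replicate block, another pseudocount, other filters, quantile normalization, limma-voom and, added later, a crossed block. Python 3.11.15 was used for the other steps.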

Additional observations from a re-analysis of the deposited data

How the results depend on the processing

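Footprint calls over all genes (68) depended on most settings: 0 to 1097 with one library left out (0 without WT replicate 1 or WT replicate 2, 336 without KO replicate 1, 1097 without KO replicate 2), 32 with the replicate block, 110 with a pseudocount of 5 RPKM and 0 without a filter on low genes (1674 at an unadjusted p under 0.05). TE calls (0) were 0 to 699 with one library left out and 1 with a pseudocount of 5 RPKM. RNA calls (3882) were 6286 without a filter and 6497 with the RNA filter, which test more genes, and 3480 with the replicate block. With the crossed pairing, added after seeing the data, footprint calls were 134 and TE calls 2. Programme-list calls were 0 to 10 in footprints and 0 to 4 in TE with one library left out, and 1 in footprints with a pseudocount of 5 RPKM. The replicate block cannot move a value in this balanced design and is not counted. Of 138 values of the 8 genes under the other alternatives, 113 stayed within the replicate spread, 19 moved and 6 changed sign. With 2 libraries per group, leaving 1 out cannot shift a value beyond that spread, apart from rounding, and can only change its sign. The 113 are therefore no measure of stability. The 6 were Cpa3 TE (0.13 with a pseudocount of 5 RPKM), Prss34 TE (-0.81 to 0.59 with one library left out, above 0 without WT replicate 2 or KO replicate 1; 0.66 with a pseudocount of 5 RPKM) and Ms4a2 RNA (-0.16 to 0.10 with one library left out, above 0 without WT replicate 2 or KO replicate 1); beyond the library left out, the cause was not tested. With 2 libraries per group and 1 to 3 reads for some genes, small footprint differences were not detectable at this depth.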
